A study of Mus musculus with 4 samples.

Results

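Secreted and membrane-tethered inhibitors of Wnt ligands were followed in intestinal adenomas of mice. The 10 members are Wif1, Notum, Apcdd1, the Dickkopf genes Dkk1, Dkk2, Dkk3 and Dkk4, and the secreted Frizzled-related genes Sfrp1, Sfrp2 and Sfrp5, each taken by its symbol (WIF1, NOTUM, APCDD1 and so on, upper case in the table) from 29871 genes. All 4 libraries came from adenomas of the small intestine of mice heterozygous for Apc Min (APC Min/+), a germline allele that truncates the tumour suppressor Apc. The controls (2 libraries) carried that allele alone, and the knockouts (2 libraries) carried it together with a knockout of PAF (PAF KO; APC Min/+), read here as the PCNA-associated factor, the product of Pclaf. The labels do not state the age, strain or number of mice, whether tumours were pooled, or which part of the gene was removed. Values are FPKM, fragment counts scaled by transcript length and library total, so levels can be set side by side between genes. Pclaf itself stood at 17.9 and 17.8 FPKM in control libraries, 4.13 in the library labelled knockout 1 and 11.4 in the library labelled knockout 2, or 23.2% and 63.9% of the control mean (limma adjusted p = 0.398). The transcript level in knockout 2 therefore does not by itself show the loss of the gene, and the names knockout 1 and knockout 2 stand for what the labels say of these libraries; values are given for each of them.

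Wnt ligands bind Frizzled receptors and the co-receptors Lrp5 and Lrp6, which stops the breakdown of beta-catenin and lets it switch on target genes with TCF/LEF factors. Extracellular antagonists act before that step: some bind the ligand, some strip its lipid and some occupy the co-receptor. Loss of Apc activates beta-catenin downstream of the receptors, and several of these antagonists are themselves beta-catenin targets. In mouse intestine Notum released by Apc-mutant cells is known to lower Wnt signalling in neighbouring normal stem cells.

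The most abundant members, Wif1 and Notum, were lower in both libraries labelled as knockouts than in both controls, at a mean of 21.4% and 33.3% of the control level, and so were Apcdd1, Dkk3 and Dkk2. Sfrp1 was higher in both knockouts, while Dkk1, Dkk4, Sfrp2 and Sfrp5 were near or under 1 FPKM. None of these differences passed the adjusted threshold over all genes, in a comparison of 2 libraries with 2.

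The libraries held an estimated 12900000 to 23900000 fragments. Across genes, Pearson r was 0.958 between the controls and 0.821 between the knockouts. Knockout 2 also differed in Xist, the transcript of the inactive X chromosome of females, at 46.4 FPKM against at most 0.00861 in the other 3 libraries. All 9 epithelial markers were detected, with Epcam at 946 to 1342 FPKM. Their sum was 6909 and 6828 FPKM in the controls, 7964 in knockout 1 and 8051 in knockout 2. Nothing in the labels ties the libraries to separate mice. Xist stood at 0.00696 FPKM in knockout 1, so the knockout libraries are not technical repeats of a single sample. Between the controls the spread may be technical. The median absolute log2 difference was 0.088 between the controls and 0.488 between the knockouts. P-values measure only the spread between these samples, and the fit held no term for sex.

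Wif1 binds Wnt proteins directly and keeps them from their receptors. Its level was 322 and 316 FPKM in the control libraries and 65.3 and 71.3 FPKM in the knockout libraries. The groups did not overlap, and the knockout mean was 21.4% of the control mean. On the log2(FPKM + 1) scale the difference was -2.21 (SE 0.171, 95% interval -2.69 to -1.73, with 2 libraries per group). The limma p was 0.000273 and its adjusted p over all 13716 tested rows was 0.175, which is not past the threshold of 0.05. Its p was the 20th smallest of all tested rows. Rows at least as far down made up 1.22% of those tested, and 31 of the 391 rows within 2-fold of its control level lay as far down.

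Notum encodes an enzyme that removes the lipid a Wnt protein needs to bind Frizzled. Its level was 309 and 312 FPKM in control libraries, 117 in knockout 1 and 90.1 in knockout 2. Both knockouts lay under both controls, at a mean of 33.3% of the control level. The fitted log2 fold change was -1.59 (SE 0.215, 95% interval -2.20 to -0.98; limma adjusted p = 0.235). Of all tested rows 2.34% lay as far down, and so did 40 of the 398 rows within 2-fold of its control level.

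Apcdd1 encodes a membrane-bound glycoprotein that binds Wnt ligands and Lrp5 at the cell surface. Control values were 40.1 and 41.5 FPKM, and knockout values were 14.1 and 13.9 FPKM. The knockouts differed from each other less than the controls did, and they stood at 34.5% and 34.1% of the control mean. Its log2 fold change of -1.48 (SE 0.148, 95% interval -1.90 to -1.06) had a limma adjusted p of 0.182.

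**Figure D1:**
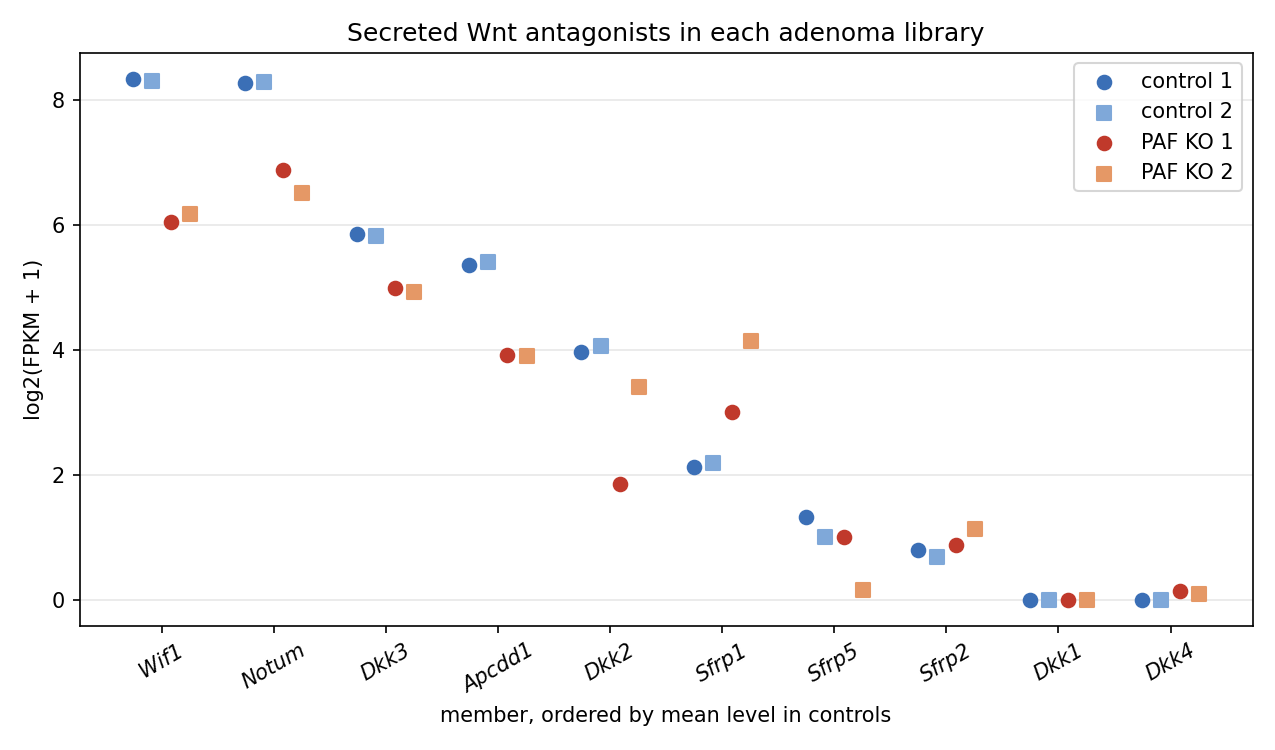
Level of each of the 10 members in each library as log2(FPKM + 1), with genes ordered by their mean in the controls; each point is 1 library. Wif1, Notum, Dkk3, Apcdd1 and Dkk2 are lower in both knockout libraries, Sfrp1 is higher in both, and the other 4 members lie near the bottom of the scale.

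Among the Dickkopf genes, Dkk1, Dkk2 and Dkk4 encode proteins that bind Lrp5 and Lrp6, while Dkk3 is a divergent member that does not act in the same way. Dkk3 was the most abundant of them, with control values of 56.8 and 55.5 FPKM and knockout values of 30.7 and 29.5 FPKM. The groups did not overlap, and the knockout mean was 53.6% of the control mean. A log2 fold change of -0.88 was fitted (SE 0.151, 95% interval -1.31 to -0.45; limma adjusted p = 0.247). These values rest on an estimated 1562 to 3223 fragments per library.

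Dkk2 stood at 14.6 and 15.8 FPKM in the control libraries, at 2.63 in knockout 1 and at 9.64 in knockout 2. Both knockouts were lower, but by different amounts, at 17.3% and 63.5% of the control mean. Its log2 fold change of -1.38 had a wide error (SE 0.583, 95% interval -3.03 to 0.27; limma adjusted p = 0.418). The value was -2.16 without knockout 2 and -0.60 without knockout 1. An estimated 148 fragments stood behind the value in knockout 1 and 853 behind that in knockout 2.

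Dkk4 was listed at 0 in both controls and at 0.107 and 0.0702 FPKM with the knockout, which corresponds to about 2 fragments in each. Dkk1 was listed at 0 in all 4 libraries. An exact 0 can be a failed estimate in such a table, so for this pair no fold change is given.

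Start-site windows from RefSeq (GRCm38.p6, 250 bases before to 50 after the start) were matched for 5 members, Wif1, Dkk1, Dkk2, Sfrp2 and Sfrp5. The table of expression was made on mm9, so these coordinates serve only to place the sequences. Of the windows, 3 are shown: Wif1 had the greatest difference between genotypes, Dkk2 was lower but uneven between the knockouts, and Dkk1 was listed at 0. Capitals mark the TCF/LEF core TCAAAG on either strand and the TATA box letters TATAAA on the gene's strand.
Wif1, chr10:121033754-121034053, plus strand: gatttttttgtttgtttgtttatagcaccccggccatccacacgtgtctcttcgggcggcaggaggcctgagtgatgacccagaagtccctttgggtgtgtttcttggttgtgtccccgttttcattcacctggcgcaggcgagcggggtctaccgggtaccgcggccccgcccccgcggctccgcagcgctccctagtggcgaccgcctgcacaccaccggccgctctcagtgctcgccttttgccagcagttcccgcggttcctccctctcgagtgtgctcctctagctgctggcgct
Dkk2, chr3:132085042-132085341, plus strand: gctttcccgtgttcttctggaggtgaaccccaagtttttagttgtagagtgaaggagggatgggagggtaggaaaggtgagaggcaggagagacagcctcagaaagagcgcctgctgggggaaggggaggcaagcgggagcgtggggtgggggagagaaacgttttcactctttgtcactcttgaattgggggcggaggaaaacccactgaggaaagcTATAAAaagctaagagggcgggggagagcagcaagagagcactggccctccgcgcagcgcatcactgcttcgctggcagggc
Dkk1, chr19:30549447-30549746, minus strand: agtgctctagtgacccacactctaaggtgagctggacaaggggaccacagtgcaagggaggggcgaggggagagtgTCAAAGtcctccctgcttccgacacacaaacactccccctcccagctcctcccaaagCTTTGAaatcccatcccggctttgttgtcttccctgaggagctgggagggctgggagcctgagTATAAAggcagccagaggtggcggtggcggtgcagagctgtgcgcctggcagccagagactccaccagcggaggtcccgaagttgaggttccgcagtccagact

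Within its window Dkk1 held the 6-letter core at 2 places, starting at bases 77 and 134 counted from the window's 5′ end, and the other 4 members held none. The longer core ATCAAAG, which contains the shorter one, was in 0 of the 5 windows. Over all 32851 windows of 300 bases, 16% held TCAAAG and 3.73% held ATCAAAG on either strand, and 8.32% held TATAAA on the gene's strand. The window of Wif1 was 63% G or C with 25 CpG pairs, and that of Dkk2 was 57.7% with 11, against medians of 52.7% and 7 over all windows. The letters describe these windows only and say nothing of binding.

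The secreted Frizzled-related proteins carry a Frizzled-like cysteine-rich domain that binds Wnt ligands, and SFRP1 is often silenced by promoter methylation in human colorectal cancer. Sfrp1 was the tested member that lay higher in the knockouts, with control values of 3.35 and 3.54 FPKM, 7.01 in knockout 1 and 16.7 in knockout 2. Both knockouts were above both controls, at 203% and 485% of the control mean. This gave a log2 fold change of 1.42 (SE 0.444, 95% interval 0.16 to 2.68; limma adjusted p = 0.343), and it was 0.85 without knockout 2 and 1.99 without knockout 1. Rows as far up made up 1.32% of those tested.

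Sfrp2 stood at 0.732 and 0.615 FPKM in control libraries and at 0.847 and 1.19 in knockout libraries, under the mean of 1 FPKM needed for testing. Sfrp5, also under that mean, stood at 1.502 and 1.01 FPKM in control libraries, 1.02 in knockout 1 and 0.112 in knockout 2. Its groups overlapped, and the lowest value rests on about 5 fragments. When every row above 0 in some library was tested, limma adjusted p was 0.569 for Sfrp2 and 0.593 for Sfrp5.

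**Figure D2:**
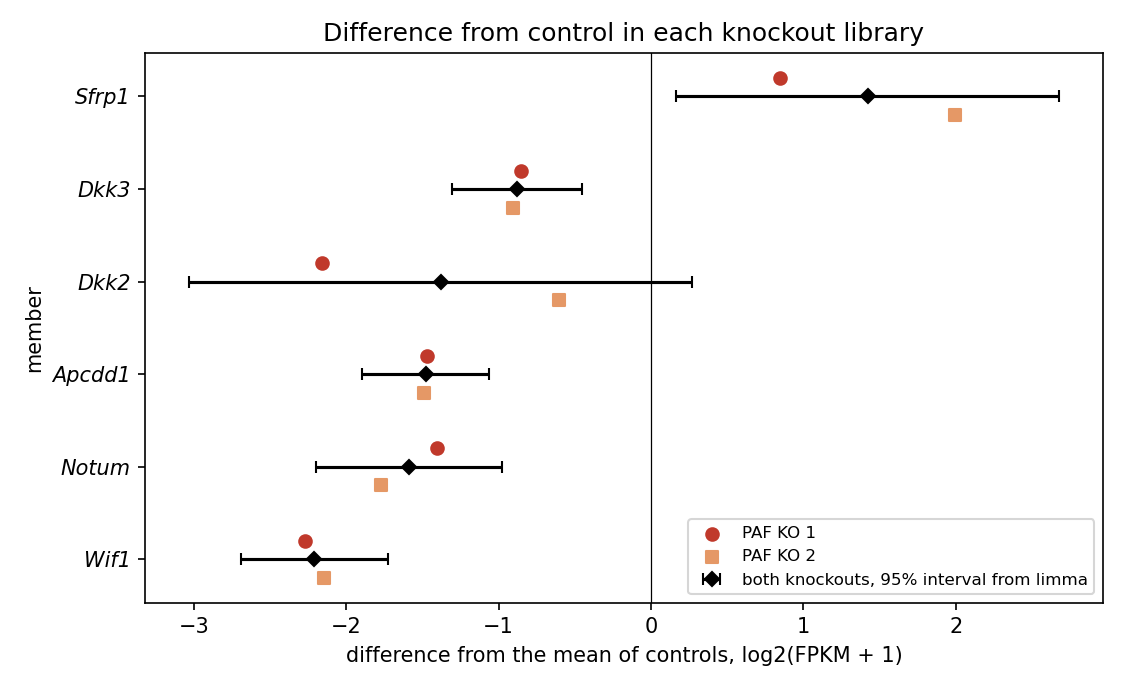
Difference from the mean of the controls on the log2(FPKM + 1) scale for the 6 tested members; circles and squares are single knockout libraries, and diamonds with bars are both knockouts with the 95% interval from limma. Wif1, Apcdd1 and Dkk3 have nearly the same value in both knockouts, and Dkk2 and Sfrp1 differ most between them.

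Of the 10 members, 6 had a mean of at least 1 FPKM and were tested. After adjustment over all rows limma called 0 of them, beside 0.0729% of all tested rows, none of which was higher. With an unadjusted limma p under 0.05, 4 members were lower (Wif1, Notum, Apcdd1 and Dkk3) and 1 was higher (Sfrp1), where 9.76% of tested rows were lower and 3.44% higher. Both knockouts lay under both controls for 5 members, against 30.2% of tested rows, and over both controls for 1 member, against 21.5%. Without knockout 1, limma called 5 members lower and 1 higher, beside 27.1% and 34.1% of all rows; without knockout 2 the counts were the same, beside 14.4% and 6.27% of all rows, and without either control they were 0. The median log2 fold change of the 6 was -1.43, with -1.44 in knockout 1 and -1.20 in knockout 2, while the median over all tested rows was 0.0035. The members were chosen with results of these data known, so the counts describe them and do not test them.

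**Figure D3:**
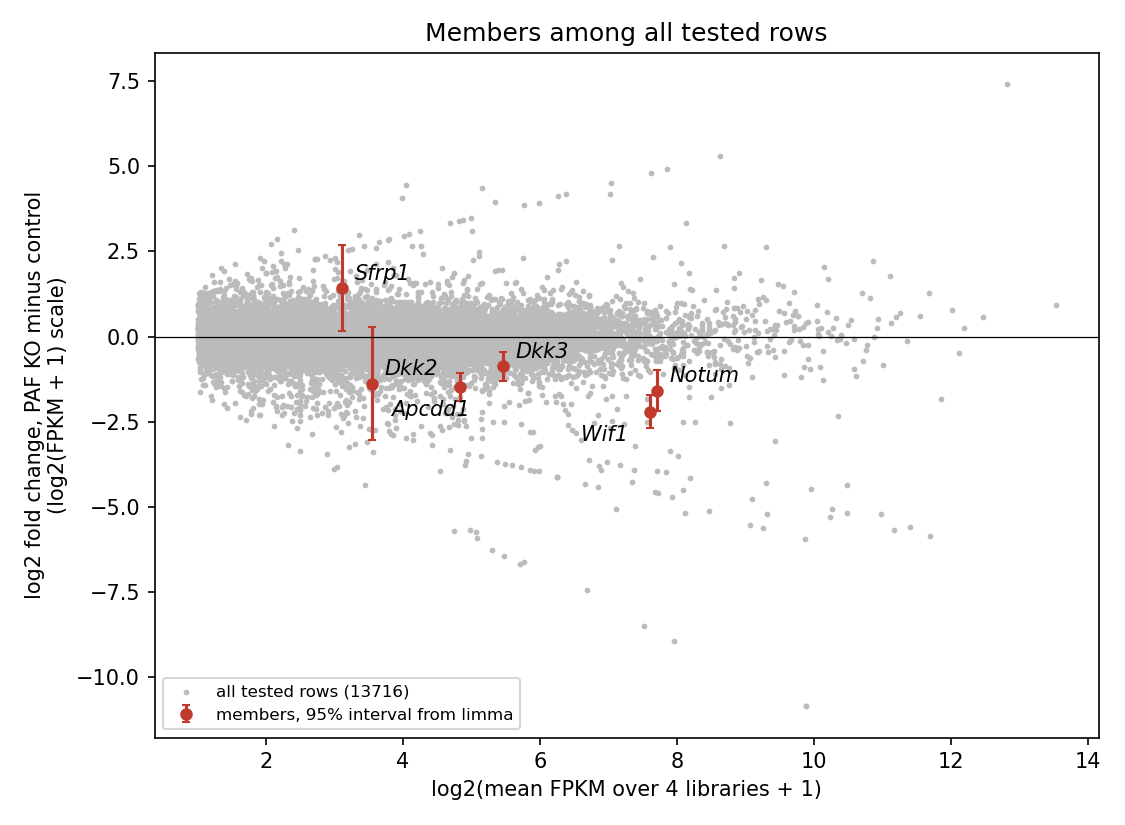
Log2 fold change (knockout minus control) against mean level for 13716 tested rows in grey and 6 members in red with 95% intervals from limma. Wif1 at -2.21 and Notum at -1.59 lie below most rows of like level, and Sfrp1 at 1.42 lies above most.

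In the controls Wif1 and Notum were at nearly the same level, with a Wif1 to Notum ratio of 1.04 and 1.01. Then came Dkk3, Apcdd1, Dkk2, Sfrp1, Sfrp5 and Sfrp2, and no neighbours in that order overlapped. In the knockouts Notum stood first and Wif1 second, followed by Dkk3. There Apcdd1 and Sfrp1 overlapped, as did Sfrp1 and Dkk2, and Sfrp2 and Sfrp5. The Wif1 to Notum ratio was 0.558 in knockout 1 and 0.791 in knockout 2, so both lay under the controls. With 2 libraries against 2, a 2-sided exact permutation p cannot go under 0.333, so this and the other ratios are given as values without a test.

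Summed over the 10 members, FPKM was 748 and 746 in control libraries and 239 and 233 in knockout libraries, or 31.5% of the control mean. Wif1 and Notum together made up 84.3% and 84.2% of the sum in the controls, then 76.4% in knockout 1 and 69.4% in knockout 2. Wif1 alone went from 43.0% and 42.4% to 27.4% and 30.6%. Sfrp1 supplied 0.448% and 0.475% of the sum in the controls, 2.94% in knockout 1 and 7.18% in knockout 2.

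**Figure D4:**
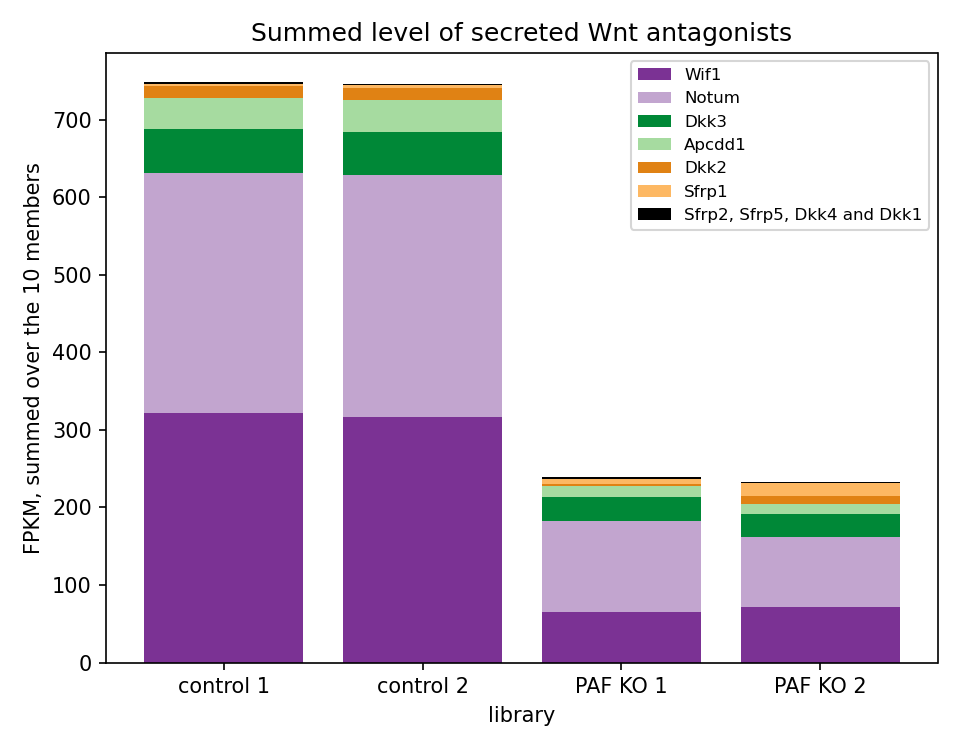
FPKM summed over the 10 members in each library, with a colour for each of the 6 tested members and black for the other 4. The 2 control bars reach 748 and 746 and the 2 knockout bars 239 and 233, and most of each bar is Wif1 and Notum.

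Ratios within a library do not depend on how libraries are scaled. Axin2, an intracellular feedback inhibitor and standard readout of beta-catenin activity, stood at 122 and 118 FPKM without the knockout and at 44.9 and 27.9 with it. Notum over Axin2 was 2.54 and 2.64 in control libraries and 2.60 and 3.23 in knockout libraries, so these groups overlapped. Apcdd1 over Axin2 overlapped as well, at 0.329 and 0.351 against 0.314 and 0.499. Wif1 over Axin2 was 2.64 and 2.67 in the controls, 1.45 in knockout 1 and 2.56 in knockout 2, which is lower in both but close to the controls in knockout 2.

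Relative to Epcam, an epithelial adhesion molecule, Wif1 stood at 0.320 and 0.334 in control libraries and at 0.0691 and 0.0531 in knockout libraries. Notum over Epcam was 0.307 and 0.330 against 0.124 and 0.0672. Neither ratio overlapped between genotypes, so both genes were lower per unit of this epithelial transcript. In tissue RNA, fewer cells of a type and less RNA per cell cannot be told apart.

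Other parts of the pathway were read from lists of its known genes. After adjustment over all rows limma called 0 of their members, beside 0.0729% of all tested rows. The counts at an unadjusted limma p under 0.05 in these lists stand beside 9.76% of all tested rows lower and 3.44% higher. Among 4 tested genes of 11 other extracellular antagonists, 2 were lower at an unadjusted p under 0.05 and 0 higher. These were Kremen1, a Dickkopf receptor, at 55.5% and 58.7% of its control mean in the knockouts, and Igfbp4, an IGF-binding protein that also binds Frizzled and Lrp6, at 538 and 533 against 280.3 and 310.2 FPKM. The third named by the rule, Dkkl1, a Dickkopf-like gene, was higher in both knockouts by 0.40 on the log2 scale (SE 0.267; limma adjusted p = 0.546).

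Of 21 listed genes for ligands and their secretion 9 were tested, and 2 were lower at that level and 0 higher. The ligand Wnt10a stood at 3.37 and 2.68 FPKM in control libraries and at 0.541 and 0.691 in knockout libraries. Wnt6 had a log2 fold change of -1.84 (SE 0.177; limma adjusted p = 0.182) and Wnt5a, a mainly non-canonical ligand, of 0.50 (SE 0.239; adjusted p = 0.449). Summed ligand and secretion transcripts came to 82.4 and 78.0 FPKM in the controls, 44.9 in knockout 1 and 81.4 in knockout 2, so the sum was low in knockout 1 alone. Wls, which carries Wnt proteins to the cell surface, made up the greatest part of that sum, with control values of 45.2 and 41.9 FPKM, 19.5 in knockout 1 and 53.8 in knockout 2.

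Among 13 tested receptors and co-receptors, 4 were lower and 0 higher at an unadjusted p under 0.05. Fzd10, at 40.4 and 40.2 FPKM in control libraries, stood at 11.0% and 14.9% of the control mean in the knockouts. Its log2 fold change of -2.74 (SE 0.198) was greater in size than that of Wif1. Ror2, a receptor for Wnt5a, and Fzd6 had log2 fold changes of -0.71 and -0.59. The co-receptor Lrp6, on which Dickkopf proteins act, overlapped between genotypes at 12.0 and 12.0 FPKM against 9.68 and 14.2. Lrp5 stood at 87.1 and 89.0 FPKM in control libraries, 82.2 in knockout 1 and 35.9 in knockout 2.

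R-spondins and their receptors had 2 of 5 tested genes lower, Znrf3 and Rnf43, ligases that remove Frizzled from the cell surface, with log2 fold changes of -1.17 and -1.05. Rspo3, which blocks these ligases, was higher in both knockouts by 1.10 (SE 0.562; limma adjusted p = 0.465), with control values of 0.251 and 0.142 FPKM, 0.569 in knockout 1 and 3.16 in knockout 2. Glypicans, cell-surface proteoglycans that hold Wnt proteins and that Notum associates with, had 3 of 4 tested genes lower at that level. Gpc1 read 34.05 and 30.7 FPKM against 13.3 and 11.1, Gpc2 read 4.38 and 4.16 against 2.31 and 1.77, and Gpc3 read 9.14 and 8.54 against 4.08 and 0.786. Among 16 tested beta-catenin target genes outside the members, 10 were lower and 0 higher, beside 9.76% and 3.44% of all tested rows. Their median log2 fold change was -0.85, against 0.0035 over all tested rows. The transcription factor Sp5, at 119 and 115 against 36.6 and 24.4 FPKM, and the beta-catenin partner Lef1, at 20.2 and 16.2 against 5.65 and 4.89 FPKM, had log2 fold changes of -1.93 and -1.61, between those of Wif1 and Notum. Nkd1, an inhibitor of Dishevelled, had a log2 fold change of -1.75 (SE 0.267; limma adjusted p = 0.238).

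Markers of other cell types and of gut position differed between the libraries, and no marker with a row was at 0 in all 4. Fibroblast markers summed to 400 and 394 FPKM in the controls, 461 in knockout 1 and 853 in knockout 2. Of these markers, 8 of 11 were over both controls in both knockouts, against 21.5% of all tested rows. Smooth muscle markers summed to 230.1 and 229.7 FPKM, then 273 and 821, with 7 of 9 over both controls, against the same share. Sfrp1, like both sums, was highest in knockout 2 and next in knockout 1. Sfrp1 over the collagen gene Col1a1 did not overlap between genotypes, at 0.0584 and 0.0613 in control libraries and 0.0858 and 0.181 in knockout libraries. Col1a1 stood at 160% of its control mean in knockout 2, and this ratio does not stand for the fibroblast list. Lum (736%) and Dpt (610%) stood over Sfrp1 there. The other fibroblast markers stood under it, with Col3a1 highest of these at 329%. In knockout 1 all fibroblast markers stood under Sfrp1, with Thy1 highest at 187%. Sfrp1 over Myh11, a smooth muscle myosin, did overlap, at 0.473 and 0.557 against 0.666 and 0.370. Myh11 had the greatest rise of the smooth muscle markers in knockout 2, at 671% of its control mean, so this ratio does not stand for the list. Sfrp1 stood at 485% there, over Acta2 (291%), Actg2 (235%), Des (400%), Mylk (229%), Synpo2 (413%) and Lmod1 (402%). Tagln (544%) and Cnn1 (551%) stood over Sfrp1. In knockout 1 Sfrp1 stood at 203%, over every marker on that list, of which Mylk was highest at 183%. The part of these cells in the value of Sfrp1 was not tested. Dkk3 and Dkk2 lay lower while the fibroblast sum was higher, and Dkk3 over Col1a1 was 0.989 and 0.960 without the knockout and 0.375 and 0.320 with it.

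Distal small intestine markers were lower in both knockouts for 7 of 7 genes, against 30.2% of all tested rows. Their median difference was -1.62 in knockout 1 and -0.94 in knockout 2 on the log2 scale. They summed to 1318 and 1287 FPKM in the controls, 114 in knockout 1 and 820 in knockout 2, but most of that sum was Fabp6, an ileal bile acid binding protein, at 956 and 926 FPKM in control libraries, 2.59 in knockout 1 and 634 in knockout 2. Of the others, Slc10a2, the ileal bile acid transporter, stood at 1.84% and 77.0% of its control mean in knockouts 1 and 2. The remaining 5 were low in both: Cubn stood at 6.75% and 12.5%, Amn at 35.5% and 18.7%, Osr2 at 39.3% and 30.6%, Slc51a at 37.5% and 51.8%, and Slc51b at 31.9% and 59.4%. Proximal markers went apart, with control sums of 1059 and 1080 FPKM, 5760 in knockout 1 and 128 in knockout 2. Most of the control sum was Apoa4, at 948 and 972 FPKM in control libraries, 3251 in knockout 1 and 10.2 in knockout 2. Fabp1, a proximal fatty acid binding protein, was at 49.7 and 50.4 FPKM in control libraries, 2367 in knockout 1 and 40.5 in knockout 2. Gata4, Lct and Cybrd1 were also over the controls in knockout 1 and under them in knockout 2. Slc40a1 went the other way, at 96.2% and 187% of its control mean, and so did Heph, at 84.7% and 154%. In the same libraries Wif1 stood at 20.5% and 22.3% of its control mean, Apcdd1 at 34.5% and 34.1%, Dkk3 at 54.6% and 52.6%, Notum at 37.7% and 29.0%, Dkk2 at 17.3% and 63.5%, and Sfrp1 at 203% and 485%. Paneth cell markers summed to 3392 and 3660 FPKM in the controls, 2667 in knockout 1 and 7055 in knockout 2, endothelial markers to 66.0 and 66.9, then 79.3 and 86.6, immune markers to 57.3 and 58.9, then 31.3 and 58.3, and markers of enteric glia and neurons to 9.05 and 8.06, then 8.91 and 16.3 FPKM. Ang4 carried most of the Paneth difference between the knockouts, at 103 and 3248 FPKM. Pla2g2a alone went the other way, at 83.5% and 34.4% of its control mean. Over both controls in both knockouts lay 6 of 7 endothelial markers, against 21.5% of all tested rows, with Tek highest at 358% and 542%. Cdh5 was lower in both, at 96.3% and 46.0%. Most of the immune sum in the controls was Laptm5, at 39.2% and 45.1% of its control mean in the knockouts. Cd3e was also low in both, at 41.1% and 51.9%. Ptprc stood at 47.1% and 296%, Csf1r at 84.2% and 198%, Cd79a at 143% and 303%, and Itgam at 159% and 282%. The part of gut position and of these cells in the values of the members was not tested.

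**Figure D5:**
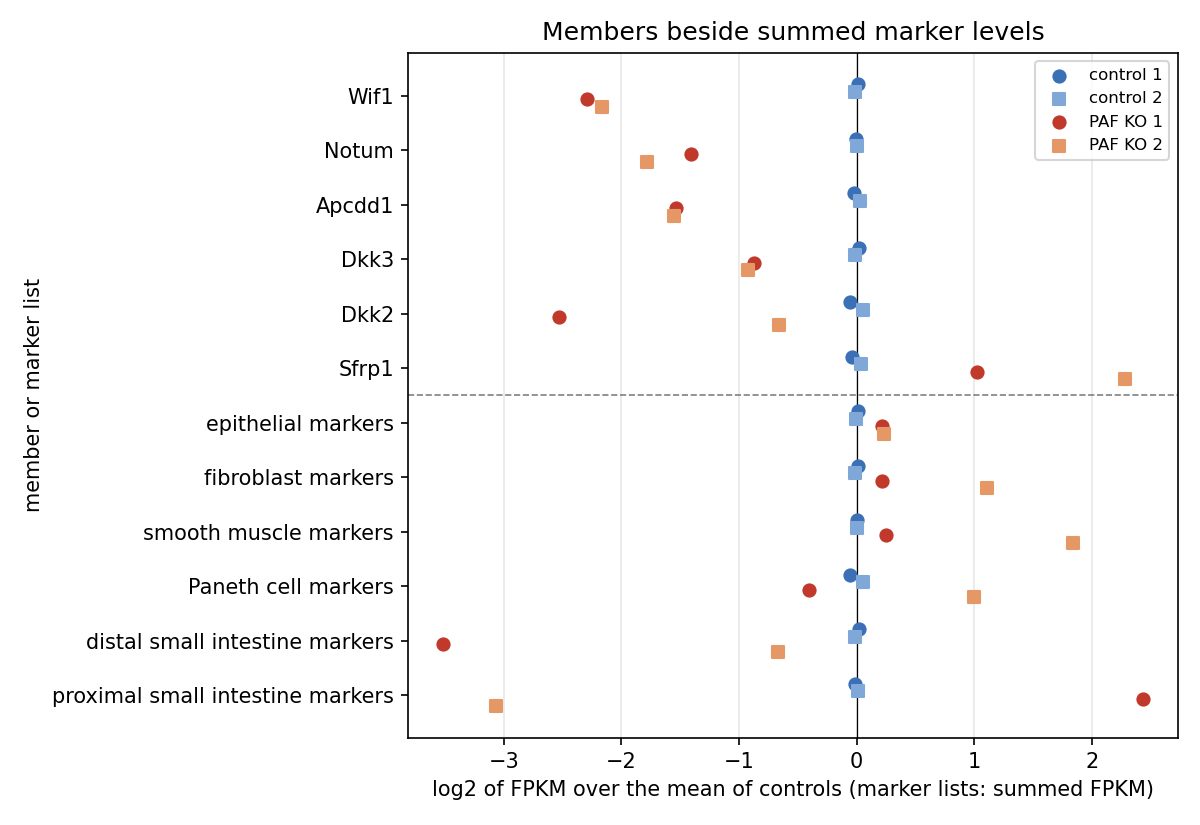
Level of the 6 tested members (above the dashed line) and summed level of marker lists (below it) in each library, as log2 of the ratio to the mean of the controls. Wif1, Apcdd1, Dkk3 and the epithelial sum have nearly equal values in both knockouts. Dkk2, Sfrp1 and the sums of proximal and distal small intestine, fibroblast, smooth muscle and Paneth cell markers differ between them. Single genes carry much of some sums. The distal sum is mostly Fabp6, the proximal sum in the controls is mostly Apoa4, and the Paneth difference between the knockouts is mostly Ang4.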

How the data were processed

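Total RNA was isolated with a spin-column kit and sequenced after BGI and Illumina library preparation, per the labels. FPKM values were deposited by the authors in 1 table, 1 column for each library. The submitters' processing notes name TopHat2, Cuffdiff and build mm9, with versions, settings and annotation not given in the sources used here. The table held 29955 rows, of which 84 repeated a symbol; the row of higher mean was kept.

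Rows averaging at least 1 FPKM were fitted with limma 3.58.1 (R 4.3.3) on log2(FPKM + 1) with a trend on mean expression, 2-sided, with Benjamini-Hochberg adjustment over 13716 rows and a threshold of 0.05. This scale understates changes of low genes. FPKM are not counts, so no count test was run. The steps were also run on simulated data in which both groups had the same spread. That setting does not cover the greater spread between the knockouts, and no result here rests on it. Depth was estimated from the commonest low value of FPKM times length over single-transcript genes (1000 bases or more, GENCODE M21) and gives fragments for members with 1 transcript. Fragment numbers cover counting error only.

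The members and lists were chosen with earlier results of these data known. Named were all members, Pclaf, Axin2 and, in each pathway list, up to 3 tested genes of smallest p whose groups did not overlap. Xist, Epcam, Wls, Lrp5, Lrp6, Col1a1, Myh11, Fabp1 and Fabp6 were named after their values were seen, as were the other single markers given from the marker lists. Alternatives were pseudocounts of 0.1 and 0.01, no filter or one at 5 FPKM, quantile scaling, median centring, no trend, protein-coding rows alone, a replicate block (no pairing is stated in the labels) and leaving out each library.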

Additional observations from a re-analysis of the deposited data

How the results depend on the processing

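All 6 tested members kept their direction in each of 14 alternatives, but most of these could not have reversed it. A change of filter, trend, row set or replicate block left the fold changes as they were. Leaving out 1 library or changing the pseudocount could not reverse them, since the groups of each tested member did not overlap. Wif1 ranged from -2.27 to -2.15, Notum from -1.77 to -1.40, Apcdd1 from -1.54 to -1.42, Dkk3 from -0.90 to -0.82, Dkk2 from -2.16 to -0.60 and Sfrp1 from 0.85 to 1.99 on the log2 scale. The alternatives in which limma called any of them were those without knockout 1 or without knockout 2, where the lone knockout is assumed to vary like the controls. With 1 library left out in turn, 0 to 5 members were called lower and 0 to 1 higher, while over all rows 0 to 3721 were called lower and 0 to 4676 higher. Without either control library 0 rows were called (limma; 194 lower and 57 higher at an unadjusted p under 0.05 without control 1, and 213 and 61 without control 2). The median of the members ranged from -1.57 to -1.20 over all 14 alternatives, lowest with a pseudocount of 0.01. It ranged from -1.47 to -1.20 with 1 library left out, and was -1.20 without knockout 1. Over all rows 10 were called lower, against 4 with no filter and 0 among protein-coding rows (limma; 1307 lower and 467 higher at an unadjusted p under 0.05). Same-numbered libraries share only a number, and their deviations correlated at -0.115 across genes. With the replicate block 13 rows and 0 members were called. With the numbers crossed, chosen after seeing the data, 13 rows and 0 members were called. Members near 1 FPKM and below are limited by depth, with 5 to 37 fragments for Sfrp5.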
